A study of Mus musculus with 289 samples.

Results

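The genes described here are the Notch receptors Notch1, Notch2 and Notch3, the ligands Jag1, Jag2 and Dll1, the nuclear partner Rbpj, the target Hes1 and the Delta-related membrane protein Dlk2. They were chosen by symbol from a list of 10 genes. Of these, 9 had a row among the 15019 genes of the count table, and Hey1 is not analysed here. They were followed in single epidermal cells of mouse tail skin, on each plate, under vehicle and under PRT4165, and in cells that favoured the basal keratin Krt14 or the suprabasal keratin Krt10. PRT4165 is a small molecule that blocks the ubiquitin ligase activity of Ring1A and Ring1B, the catalytic subunits of Polycomb repressive complex 1.

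All mice carried Lrig1-EGFP-ires-CreERT2 and Rosa26-fl/STOP/fl-tdTomato on a mixed CBA C57BL/6 background, and all received hydroxytamoxifen once on the tail skin, so that cells with an active Lrig1 promoter, and their descendants, became tomato-positive. The tail skin was then treated with PRT4165 or with vehicle, all cells carry the time tag t0, and the labels give neither the age nor the sex of the mice nor how many mice each plate held. The methods of the study state that females were used for single-cell work. Each library was 1 sorted tomato-positive cell, and the 289 deposited cells lay on 4 plates, 2 per treatment. The vehicle and PRT4165 plates also carry different, unexplained treatment codes (PR9_AC and PR12_PRT), so plate, code and treatment cannot be told apart. After cells with over 50% mitochondrial counts were removed, 274 cells remained: 70 and 55 on vehicle replicates 1 and 2, and 72 and 77 on PRT4165 replicates 1 and 2.

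Notch signalling passes between touching cells. A Jagged or Delta-like ligand on one cell binds a Notch receptor on its neighbour, the receptor is cut, and its intracellular part enters the nucleus, where it joins the DNA-binding protein Rbpj and switches on targets such as the repressor Hes1. In the epidermis the pathway is known for its part in the commitment of basal keratinocytes to suprabasal differentiation. Dlk2 resembles the Delta ligands but lacks the domain by which they activate the receptor.

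The summed counts of a plate ranged from 25761756 to 41592716 and those of a single cell from 9796 to 3029822. Vehicle replicate 1 was the shallowest plate, with a median of 141985 counts per cell against 429383 to 538754 on the others. The keratinocyte label held for most cells, since Krt14 had a count in 93.1% of them. Summed markers of immune cells (3 of 8 measured) stayed between 0.157 and 2.80 CPM on every plate (counts scaled to a total of 1000000), and those of melanocytes (3 of 5 measured) between 0.944 and 5.16 CPM. Fibroblast markers (4 of 5 measured) summed to between 7.25 and 84.3 CPM. Of 3 endothelial markers only Pecam1 was measured, and it stood at 210 to 609 CPM. A share of cells with a count depends on depth, and because the reads carry no molecular identifiers, the intervals and limits below cover counting error only. In sums over cells, fewer expressing cells and less RNA per cell cannot be told apart.

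Per kilobase of transcript, the target Hes1 was the highest member and the receptor Notch3 the lowest. The median over the 4 plates was 32.1 CPM per kilobase for Hes1, 8.12 for Jag1, 7.76 for Rbpj, 2.87 for Notch1, 1.97 for Dlk2, 1.93 for Notch2, 1.29 for Jag2, 0.743 for Dll1 and 0.185 for Notch3. Neighbours in this order overlapped in their plate ranges in all but 1 case, the step from Notch1 (2.595 to 4.005) to Dlk2 (1.519 to 2.37). Jag1 ranged most widely, from 3.82 to 69.1, and 1 cell described below gave most of its counts on the highest plate. For comparison, Krt14 stood at 815 ± 387 CPM per kilobase (SD, n = 4 plates).

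**Figure D1:**
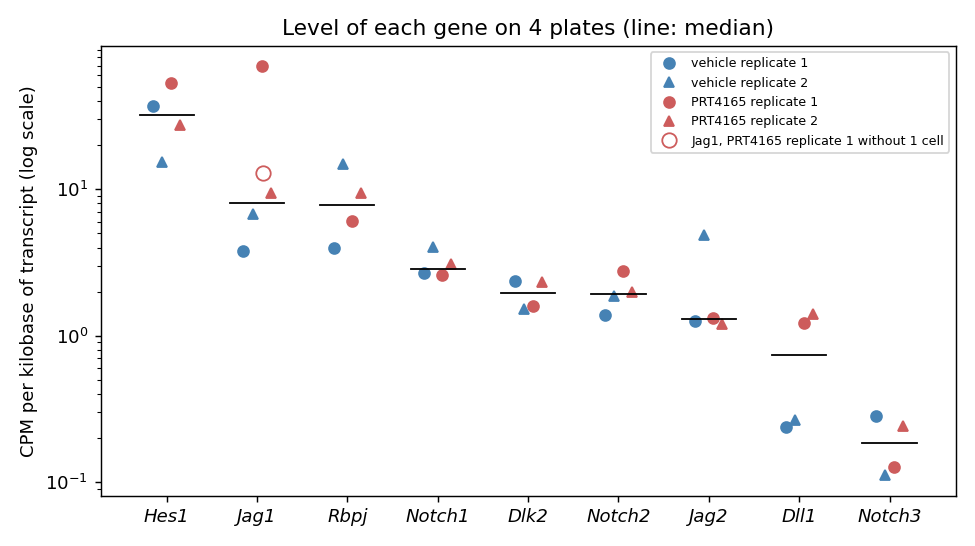
Summed counts as CPM per kilobase of the longest coding transcript (vertical axis, log scale) for each measured gene on each of 4 plates; black lines are medians. The open circle is Jag1 on PRT4165 replicate 1 without the single cell of most counts, which lowers that plate but leaves it the highest of the 4 for Jag1.

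Detection gave a partly different order, in which Notch3 stood above Dlk2 and Dll1. Hes1 had at least 1 count in 59.9% of the 274 cells, Jag1 in 52.9%, Notch1 in 47.4%, Rbpj in 41.97%, Notch2 in 32.8%, Jag2 in 28.5%, Notch3 in 16.4%, Dlk2 in 7.30% (20 cells) and Dll1 in 4.38% (12 cells). No member was seen in every cell, and 15 cells had a count of none of the 9. Those 15 cells had a median of 77911 counts, against 929888 in the 15 cells with 6 members, so the number of members seen in a cell rose with its depth.

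By the annotation of the GRCm38 mouse genome, Notch1 lies at chr2:26457903-26516663, Notch2 at chr3:98013527-98150361, Notch3 at chr17:32120820-32166852, Jag1 at chr2:137081456-137116644 and Jag2 at chr12:112907819-112929776. Dll1 lies at chr17:15367354-15376872, Hes1 at chr16:30064384-30067796, Rbpj at chr5:53466152-53657362 and Dlk2 at chr17:46297421-46303271. All 9 are protein-coding, and the values are sums over a whole gene. Exons of 5 members share bases with another annotated gene. The preparation does not keep strand, so reads from such bases cannot be told apart. The shared stretch is 488 of 8089 exon bases in Notch3, with the antisense gene Gm17276, 867 of 4219 in Dll1, with A930024N18Rik on the opposite strand, and 51 of 2113 in Dlk2, with Abcc10 on the opposite strand. Abcc10 had a count in 30 cells, of which 3 were among the 20 cells with Dlk2.

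The promoters of Notch3, Jag2, Dlk2 and Rbpj are shown because the differences between keratin classes described next turn mainly on these genes. Each runs from 250 bases before to 50 bases after a RefSeq start, 5′ to 3′ on the strand of the gene, on GRCm38.p6. These starts are not the ends of the gene spans given above, and that of Rbpj lies well inside its span. Capitals mark TGGGAA or its reverse complement TTCCCA, the core to which Rbpj binds.

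Notch3 (chr17:32166841-32167140, minus strand): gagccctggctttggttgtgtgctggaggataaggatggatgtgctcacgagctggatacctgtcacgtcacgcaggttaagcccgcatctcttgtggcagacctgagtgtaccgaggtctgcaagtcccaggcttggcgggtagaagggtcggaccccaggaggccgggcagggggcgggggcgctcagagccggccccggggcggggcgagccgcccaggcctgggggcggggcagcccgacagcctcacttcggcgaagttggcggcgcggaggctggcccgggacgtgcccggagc
Jag2 (chr12:112929446-112929745, minus strand): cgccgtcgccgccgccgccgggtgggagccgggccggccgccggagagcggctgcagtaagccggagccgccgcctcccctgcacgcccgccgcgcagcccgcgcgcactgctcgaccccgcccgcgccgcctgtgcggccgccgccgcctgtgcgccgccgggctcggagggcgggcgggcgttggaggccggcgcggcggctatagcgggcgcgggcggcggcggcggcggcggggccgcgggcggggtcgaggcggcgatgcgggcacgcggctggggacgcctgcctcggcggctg
Dlk2 (chr17:46297233-46297532, plus strand): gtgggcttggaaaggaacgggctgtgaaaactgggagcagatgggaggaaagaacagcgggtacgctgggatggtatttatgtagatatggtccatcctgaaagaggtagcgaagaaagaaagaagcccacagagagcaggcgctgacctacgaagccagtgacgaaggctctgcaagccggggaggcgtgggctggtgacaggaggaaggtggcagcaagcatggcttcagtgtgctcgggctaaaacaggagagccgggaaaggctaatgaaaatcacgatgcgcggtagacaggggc
Rbpj (chr5:53590096-53590395, plus strand): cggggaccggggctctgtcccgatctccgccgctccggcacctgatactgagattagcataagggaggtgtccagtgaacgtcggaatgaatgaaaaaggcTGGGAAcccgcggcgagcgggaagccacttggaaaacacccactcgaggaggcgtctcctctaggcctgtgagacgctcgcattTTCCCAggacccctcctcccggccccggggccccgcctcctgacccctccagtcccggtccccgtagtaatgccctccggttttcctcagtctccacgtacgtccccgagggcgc

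RefSeq promoters were matched for 8 of the 9 measured members, 11 in all. None was matched for Hes1, so the promoter of this target was not searched. The motif was searched on both strands and occurred in 2 of the 11, both of Rbpj itself, whose promoters overlap. Among all 32851 promoters of 300 bases, 25.56% held it. The Jag2 promoter had a GC content of 86.0% and that of Notch3 70%, against a median of 52.67% over all promoters.

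To ask which members belong to basal and which to suprabasal cells, each cell was classed by whether its Krt14 or its Krt10 was the higher in CPM. The basal class held 43, 36, 45 and 45 cells on vehicle replicates 1 and 2 and PRT4165 replicates 1 and 2, and the suprabasal class held 24, 17, 23 and 32. The 9 cells with under 10 CPM of both keratins stayed unclassed. In 18 cells the keratins lay within 1 log2 unit of each other. As markers that the rule did not use, Krt5 stood at 497.3 ± 134.7 CPM in the basal and 160 ± 160 CPM in the suprabasal class, and Krt15 at 1594 ± 764 and 276.2 ± 192.2 CPM (SD, n = 4 plates). Of the suprabasal markers not used, Krtdap stood at 803.2 to 2347 CPM on a plate in the basal and 6481 to 13016 CPM in the suprabasal class. Krt1 had a count in 6.51% of basal and 43.8% of suprabasal cells, with the plates pooled. Sbsn was higher in suprabasal cells on each plate, but its class ranges overlapped. It stood at 411.3 and 462.3 CPM in vehicle basal cells, above the 354.2 CPM in suprabasal cells of PRT4165 replicate 1. The suprabasal cells were deeper, with a median of 552574 counts against 338099. The basal class also held the cycling cells (summed markers 66.6 to 853 CPM on a plate, against 0.0738 to 37.8 in the suprabasal class) and more sebaceous signal (887 to 5238 against 343 to 487 CPM). Markers of the upper hair follicle (7 of 7 measured) summed to 52680 to 109200 CPM in the suprabasal and 6027 to 44520 CPM in the basal class, and those of the bulge (6 of 6) to 250.5 to 1079 and 1389 to 3345 CPM. The part of these in the differences below was not tested.

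Jag2 was the member that differed most clearly between the classes. Jag2 had a count in 27.9%, 38.9%, 48.9% and 44.4% of basal cells on vehicle replicates 1 and 2 and PRT4165 replicates 1 and 2. In suprabasal cells the shares in the same order were 4.17%, 0% (0 of 17 cells, which allows up to 17.6%), 13.04% and 12.5%. The suprabasal share was the lower one on all 4 plates, and the highest suprabasal plate lay below the lowest basal plate. The means were 40.03% ± 9.06 and 7.43% ± 6.41 (SD, n = 4), a difference of -32.6 ± 6.56 percentage points. In an exact sign-flip permutation test over the 4 plates (two-sided) p was 0.13, the smallest that 4 pairs can give. With each cell thinned to 50000 counts, which left out 23 basal and 4 suprabasal cells below that depth, the differences were -26.5, -25.7, -26.0 and -28.5 percentage points.

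The summed level of Jag2 followed its detection. It was 17.8, 36.2, 8.80 and 12.1 CPM in the basal class of the 4 plates in that order, and 0.248, 0, 5.76 and 0.471 CPM in the suprabasal class. On PRT4165 replicate 1, a single cell gave 95.7% of the suprabasal counts. In the edgeR quasi-likelihood fit over 10972 genes, with plate as a term, the log2 fold change of Jag2 from basal to suprabasal was -4.65 (SE 1.84), with an unadjusted p of 0.0366 and an adjusted p of 0.364. It therefore did not pass the threshold of 0.05 in this fit. DESeq2 on the same sums gave -4.73 (SE 1.21, adjusted p = 0.00204), and limma-trend on per-plate means of log2(CPM + 1), in which each cell counts alike, gave -1.62 (SE 0.29, adjusted p = 2.339e-05). Jag2 entered these fits through its basal counts, since it did not pass the filter on low counts in the suprabasal class alone.

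Dlk2 was also found mainly in the basal class, in few cells. It had a count in 9 of 43, 3 of 36, 3 of 45 and 3 of 45 basal cells on the 4 plates. In the suprabasal class it was at 0 on 3 plates, which allows up to 12.5%, 17.6% and 13.04% of cells, and had a count in 2 of 32 cells on PRT4165 replicate 2. The means were 10.6% ± 6.90 and 1.56% ± 3.13 (SD, n = 4; exact sign-flip permutation p = 0.13). The suprabasal share was the lower one on all 4 plates, but on PRT4165 replicate 2 by only -0.417 percentage points. With cells thinned to 50000 counts, that plate turned to 4.01 points the other way. By edgeR, Dlk2 differed by -6.52 on the log2 scale (SE 2.77), with p = 0.0473 before and 0.399 after adjustment, and Dlk2 passed the threshold with DESeq2 (-7.17, SE 1.83, adjusted p = 0.00209) and limma-trend (-0.42, SE 0.15, adjusted p = 0.0422). By summed level the order on PRT4165 replicate 2 was reversed, at 2.75 CPM in the basal and 5.51 CPM in the suprabasal class. That suprabasal level came to 94.0% from 1 cell. In the basal class 1 cell gave 52.3% and 46.8% of the Dlk2 counts on the vehicle plates. On PRT4165 replicates 1 and 2 the basal values were 74.5% and 94.6%. Like Jag2, Dlk2 entered these fits through its basal counts and did not pass the low-count filter in the suprabasal class alone.

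Notch3 went the other way. It had a count in 9.30%, 5.56%, 15.6% and 6.67% of basal cells and in 33.3%, 11.8%, 21.7% and 40.6% of suprabasal cells of the 4 plates. The suprabasal share was the higher one on all 4 plates, although the ranges of the classes overlapped. The means were 9.27% ± 4.48 and 26.9% ± 12.7 (SD, n = 4), a difference of 17.6 ± 13.8 percentage points (exact sign-flip permutation p = 0.13). Thinning to 50000 counts reduced the difference to 8.72 ± 3.56 points, still in the same direction on all 4 plates, but at 20000 counts PRT4165 replicate 1 turned to -0.33 points. The counts were few: the suprabasal class of a plate held between 21 and 55 Notch3 counts and the basal class between 4 and 26. The summed level was 0.441, 0.176, 0.978 and 1.28 CPM in basal cells and 3.29, 2.46, 1.301 and 2.59 CPM in suprabasal cells. The edgeR estimate was a log2 fold change of 2.51 (SE 1.25, p = 0.0801, adjusted p = 0.475), and Notch3 passed the threshold with none of the 3 tools.

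**Figure D2:**
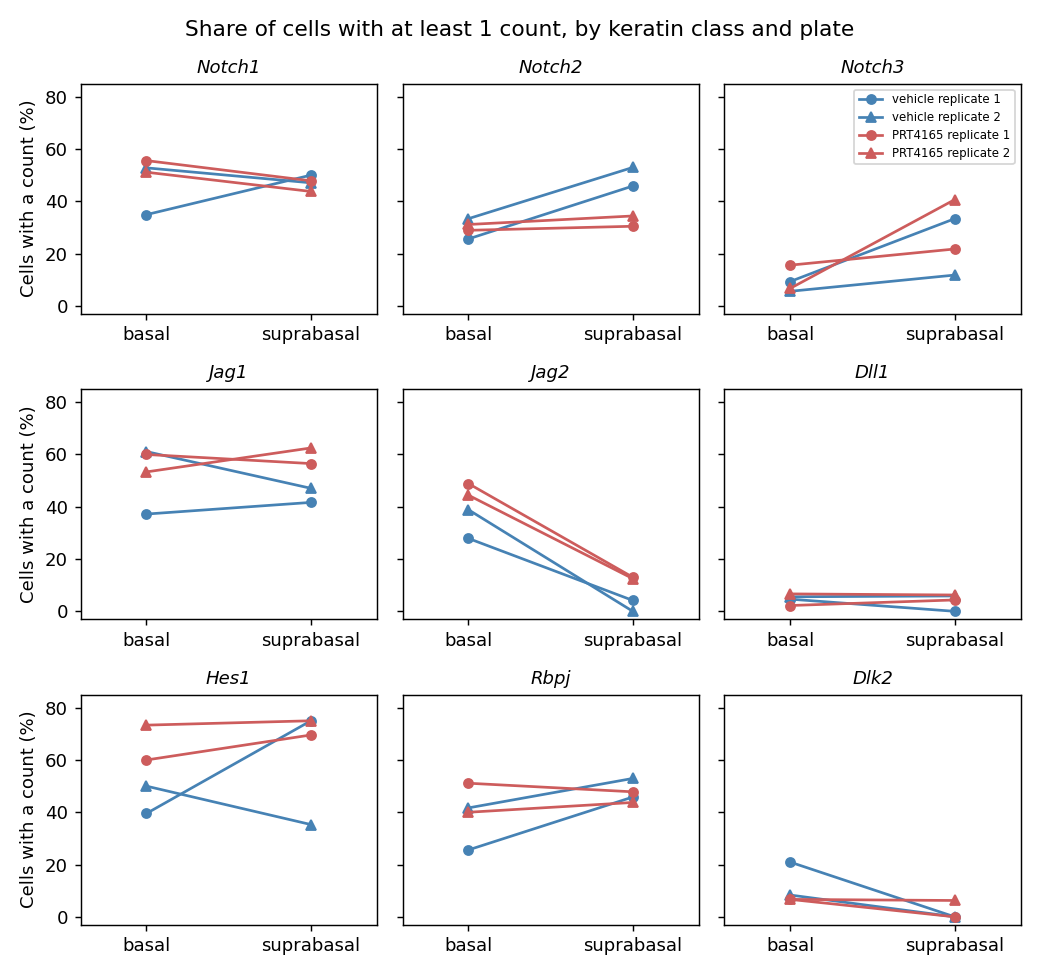
Share of cells with at least 1 count (vertical axis, %) in the basal and the suprabasal class; each line joins both classes of 1 plate, blue for vehicle and red for PRT4165, circles for replicate 1 and triangles for replicate 2. Jag2 falls on all 4 plates, to at most 13.04% in suprabasal cells, and Notch3 rises on all 4, while the Jag1 and Notch1 lines cross.

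The other receptors were shared by both classes. Notch1 had a count in 48.6% ± 9.31 of basal and 47.2% ± 2.59 of suprabasal cells (SD, n = 4 plates), with vehicle replicate 1 higher in suprabasal cells and the other plates lower. Its summed level was 28.7, 47.2, 28.8 and 36.02 CPM in basal cells and 18.4, 22.3, 25.8 and 22.5 CPM in suprabasal cells. The basal level was the higher on each plate, but the fitted log2 fold change, which is scaled by library composition, by edgeR was -0.10, with SE 0.58 and an adjusted p of 0.971. Notch2 had a count in more suprabasal than basal cells on all 4 plates, 40.9% ± 10.4 against 29.7% ± 3.31, by 20.3 and 19.6 percentage points on the vehicle plates and by 1.55 and 3.26 points on the PRT4165 plates. Thinned to 50000 counts, Notch2 no longer went 1 way, with -15.6 points on PRT4165 replicate 2. Its log2 fold change of 0.67 (SE 1.13) had an adjusted p of 0.873 by edgeR.

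Jag1, unlike Jag2, was seen about as often in both classes, in 52.9% ± 11.02 of basal and 51.9% ± 9.34 of suprabasal cells (SD, n = 4 plates). The plate differences ran from -14.1 to 9.17 percentage points, and edgeR put the log2 difference at 0.05 (SE 0.56, adjusted p = 0.984). The third ligand, Dll1, had a count in only 8 basal and 4 suprabasal cells, and the edgeR estimate for it was -2.33 on the log2 scale (SE 1.51, adjusted p = 0.612). At this depth a class difference in Dll1 was not detectable.

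Rbpj, the nuclear partner, stood at 13.8, 31.3, 34.8 and 26.0 CPM in the basal and 26.6, 193.4, 35.9 and 76.0 CPM in the suprabasal class. The suprabasal level was the higher on all 4 plates, by 1 CPM on PRT4165 replicate 1. On vehicle replicate 2, 1 cell gave 60.6% of the suprabasal Rbpj counts, and on PRT4165 replicate 2 another gave 51.9%. The edgeR estimate was 1.84 on the log2 scale (SE 0.60), with p = 0.0161 before and 0.266 after adjustment. DESeq2 called it (adjusted p = 0.0283) and limma-trend, in which no cell outweighs another, did not (0.61, SE 0.36, adjusted p = 0.277). Its detection differed less, with 39.6% ± 10.5 of basal and 47.6% ± 3.94 of suprabasal cells.

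Hes1 was read in both classes. It had a count in 39.5%, 50%, 60% and 73.3% of basal cells and 75.0%, 35.3%, 69.6% and 75.0% of suprabasal cells on the 4 plates. The difference ranged from -14.7 to 35.5 percentage points between plates. By edgeR the log2 difference was -0.05 (SE 0.53, adjusted p = 0.984).

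Of the 9 members, 2 were seen more often in suprabasal cells on all 4 plates (Notch2 and Notch3) and 2 less often (Jag2 and Dlk2). Of the 13919 genes compared in this way, 9.66% were above and 13.2% below on all 4 plates. In the edgeR fit no member passed the threshold; 0.1% of genes did so as higher in suprabasal cells and 0% as lower. The 11 genes that passed included Krt10, which the rule used, Krtdap (log2 fold change 3.12, adjusted p = 0.0258) and the desmosomal Dsp (1.91, adjusted p = 0.0178). At an unadjusted p under 0.05 there were 3 members (Jag2, Rbpj and Dlk2) and 12.3% of all genes. DESeq2 called 3 of the 9 members and 12% of all genes, and limma-trend called 2 of 9 and 13%. The median log2 fold change of the members was -0.05, against -0.22 over all genes tested.

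**Figure D3:**
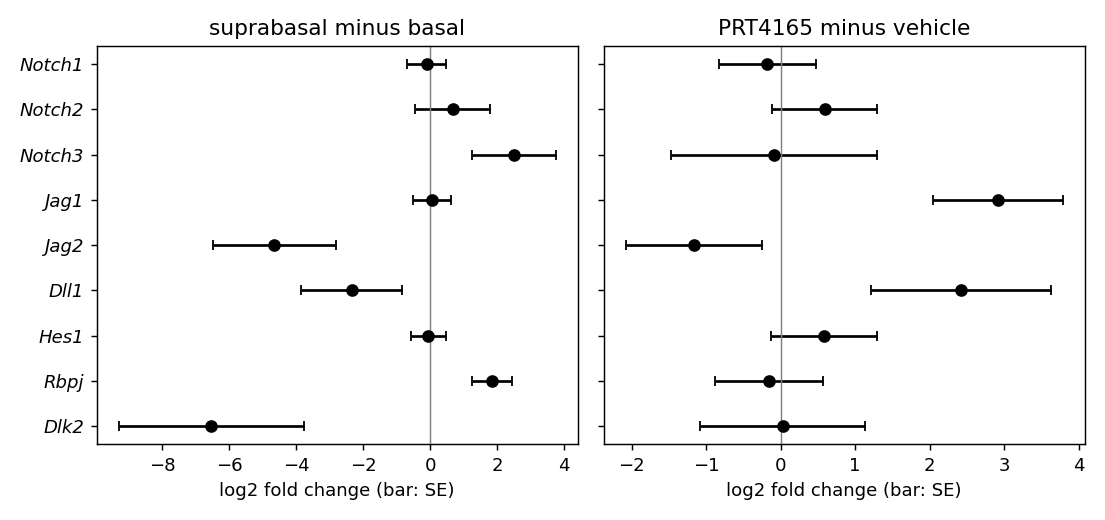
Log2 fold change with its standard error (horizontal axis) from the edgeR fits for each measured gene, suprabasal against basal class on the left and PRT4165 against vehicle over all cells on the right; the horizontal scales differ. Jag2 and Dlk2 lie furthest below 0 on the left, and Jag1 furthest above 0 on the right.

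Along the keratin ratio the shares of cells were described with the 4 plates pooled and without thinning, and no trend was tested. The classed cells were placed in 5 bins of log2(Krt10/Krt14), with edges at -8, -2, 2 and 8 that were chosen after the values had been seen, and which held 89, 65, 33, 58 and 20 cells. Jag2 had a count in 43.8%, 38.5%, 24.2%, 5.17% and 5% of cells from the most basal to the most suprabasal bin. Notch3 had a count in 4.49%, 12.3%, 24.2%, 32.8% and 25.0%, and Dlk2 in 16.9%, 4.62%, 3.03%, 1.72% and 0% (0 of 20 cells). So Jag2 and Notch3 were equally frequent where both keratins were balanced. Jag1 stayed between 48.5% and 56.9% and Notch1 between 42.7% and 60.6% in all bins, without a direction. Hes1 was seen in 53.9% of cells in the first bin and in 70% in the last. The median depth of the bins was 347320, 336620, 304090, 584480 and 608640 counts in the same order. The part of depth in these shares was not tested.

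**Figure D4:**
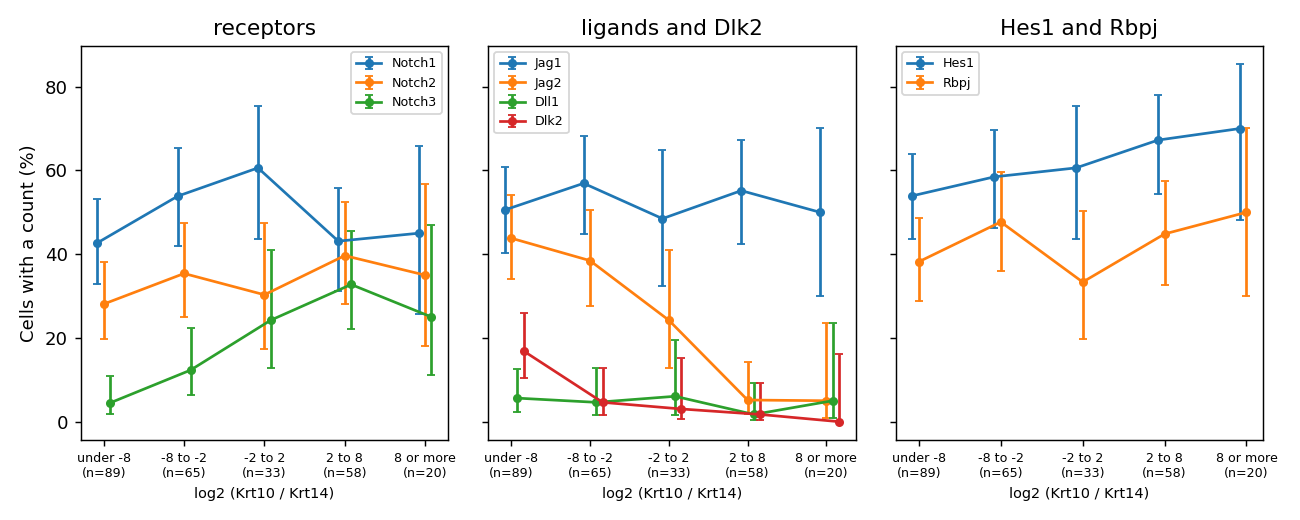
Share of cells with a count (vertical axis, %, bars are Wilson 95% intervals) in 5 bins of the log2 Krt10 to Krt14 ratio, from basal on the left to suprabasal on the right, with the cells per bin below the axis. Cells of the 4 plates are pooled, so the bars leave out the spread between plates. Jag2 falls from 43.8% to 5% and Notch3 climbs from 4.49% to 32.8% before the last bin, while Jag1 and Notch1 keep no direction.

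**Figure D5:**
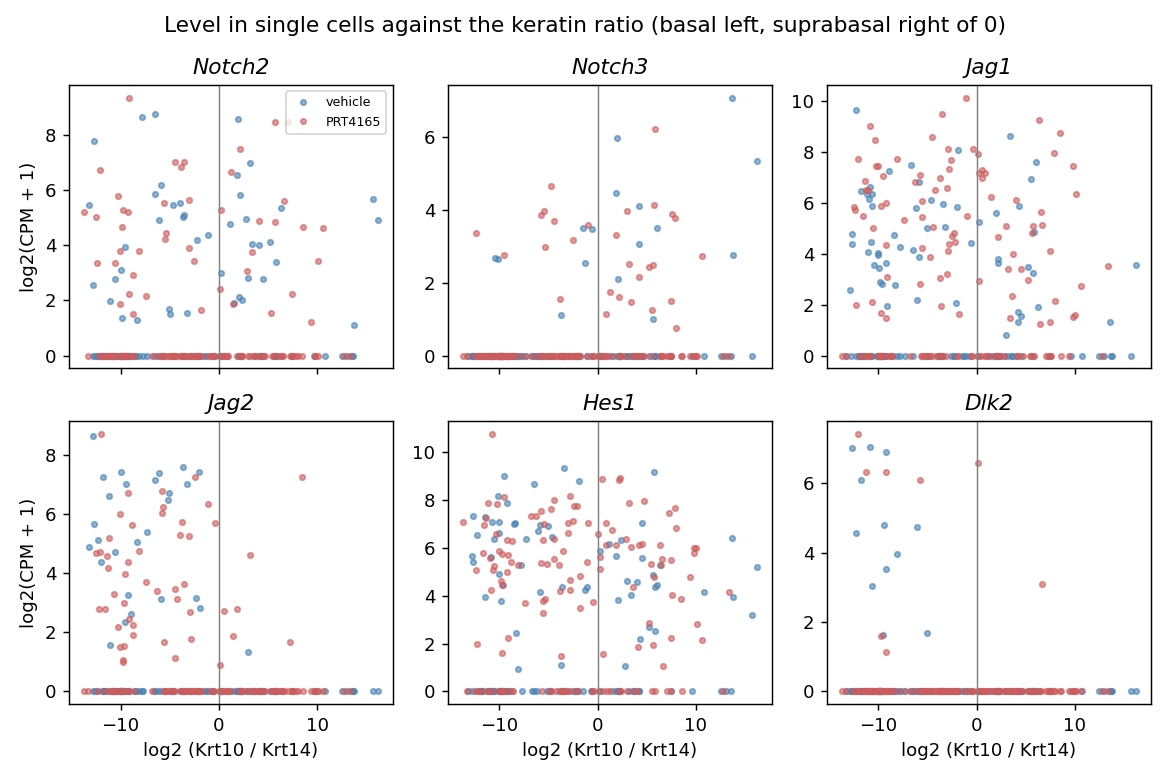
Level in single cells as log2(CPM + 1) (vertical axis) against the log2 Krt10 to Krt14 ratio (horizontal axis; classes divide at 0) for 6 members, 1 point per classed cell, blue for vehicle and red for PRT4165. Jag2 and Dlk2 points above 0 lie almost all on the basal side, whereas Hes1 and Jag1 points spread over both.

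Within the basal class the members were not spread evenly over cell states, as read from 1 marker gene each, chosen after the values had been seen. The subsets overlap. Of the 37 basal cells with a count of the proliferation gene Mki67, 62.2% had Jag2, and 14 of the 37 lay on PRT4165 replicate 1. Of the 66 basal cells with none of the markers used here, 36.4% had Jag2. Of the 24 with over 1000 CPM of the duct keratin Krt79, 20.8% had Jag2 and none had Dlk2 (0 of 24). Of the 27 with over 1000 CPM of Scd1, an enzyme of sebaceous lipid synthesis, 55.6% had Jag2 and 74.1% Hes1. Of these Scd1 cells, 7 and 15 lay on PRT4165 replicates 1 and 2, and on the latter plate 73.3% of all basal cells had Hes1. Notch3 was not seen in the 37 basal cells with a count of the bulge marker Cd34, and Notch2 was least frequent there, in 18.9%, against 54.2% of the Krt79 cells. The Krt79 and Cd34 subsets had median depths of 342600 and 316900 counts, the Scd1 subset 594000 and the Mki67 subset 437200. The basal cells with none of these markers were shallower, with a median of 236200 counts. These shares pool the plates and were not tested.

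Single cells often held both sides of the pathway. Of the 274 cells, 91 had no receptor count, 113 had 1 receptor, 58 had 2 and 12 had all 3. At least 1 receptor and 1 ligand were read together in 125 cells (45.6%), while 38 cells had neither and were shallow, with a median of 114600 counts. Jag1 and Jag2 were read together in 49 cells, Jag1 without Jag2 in 96 and Jag2 without Jag1 in 29. Both Jagged ligands were read in 24.9% of basal and 6.25% of suprabasal cells. Of the 20 cells with Dlk2, 60% also had Jag2, against 26.0% of the other cells. Most of these cells were basal, and within the basal class the shares were 61.1% and 37.7%, with the opposite order on vehicle replicate 2 (33.3% and 39.4%). Hes1 was read in 66.1% of cells with a receptor and in 47.3% of those without, which were also shallower (median 261630 counts).

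Across cells, the members of the pathway had no close followers. For the 6 members read in at least 25% of cells, the 5107 genes read as often were ranked by Pearson's r of log2(CPM + 1) over the 274 cells, centred within plates. The cells share plates and depth, and the highest values are weak. They were 0.408 for Jag2 with Ccnd2, a cyclin of the G1 phase, then 0.388 with the chaperonin subunit Cct7 and 0.379 with the DNA repair gene Rbbp8. For Notch2 they were 0.377 with Abca12, a lipid transporter of the upper epidermis, 0.332 with Endou and 0.315 with Elovl7, and all 3 of these rose with depth as Notch2 did. Notch1 was nearest to Ddx39b, Fnbp1 and Pabpc1 (0.327 to 0.353), and Jag1 to Clcc1, Gja1 and Cct4 (0.311 to 0.321). For Hes1 the nearest were Dsc3, Adrm1 and Srsf11 (0.295 to 0.307), and for Rbpj they were Kdm2a, Litaf and Dph6 (0.272 to 0.305).

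The treatment comparison asks whether inhibition of Polycomb repressive complex 1 changed the members. Over all cells no member passed the threshold in the edgeR fit of 12791 genes, where 0% of genes passed, the smallest adjusted p was 0.862 and 4.93% of genes had an unadjusted p under 0.05. DESeq2 called 1.4% of genes and limma-trend 19 genes, with no member among them. The median log2 fold change was 0.03 for the members and -0.02 for all genes.

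Jag1 had the largest fitted difference. Its summed level was 21.4 and 38.02 CPM on the vehicle plates and 388 and 53.1 CPM on the PRT4165 plates, so that both PRT4165 plates lay above both vehicle plates, far apart from each other. On vehicle replicate 2, 1 unclassed cell gave 41.1% of the Jag1 counts, at 631 CPM, and was kept in the fits over all cells. In the edgeR fit the log2 fold change came to 2.91 (SE 0.88), with p = 0.0101 before and 0.869 after adjustment. The cell of most counts in the series lay on PRT4165 replicate 1, had 3029822 counts but only 1527 detected genes, and gave 82.8% of the Jag1 counts of that plate, at 4079 CPM. Without it the plate stood at 72.3 CPM and edgeR gave 1.10 (SE 0.60, adjusted p = 0.999). That cell had under 10 CPM of Krt14 and of Krt10, had no count of the other 8 members, and belonged to neither class.

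In the classes, which do not hold that cell, Jag1 was still the higher on both PRT4165 plates. In basal cells it stood at 22.8 and 28.1 CPM with vehicle and at 57.7 and 63.8 CPM with PRT4165. How many of all genes were separated by treatment in summed level, within a class or over all cells, was not counted. In suprabasal cells the values were 12.6 and 12.6 against 90.8 and 42.9 CPM. Of the suprabasal counts, 1 cell gave 58.1% and 56.5% on the vehicle plates and 54.3% on PRT4165 replicate 1. By edgeR the log2 fold change was 1.34 in the basal class (SE 0.70, p = 0.0891, adjusted p = 0.886) and 2.27 in the suprabasal class (SE 1.02, p = 0.0564, adjusted p = 0.908). Other markers also differed within the classes. In the basal class, markers of the upper hair follicle summed to 44520 and 29380 CPM with vehicle but 14370 and 6027 CPM with PRT4165, and in the suprabasal class Krt15 had a count in 33.3% and 23.5% of cells with vehicle but 60.9% and 93.8% with PRT4165. Their part in the treatment differences within classes was not tested. The share of all cells with Jag1 was 40% and 56.4% with vehicle and 58.3% and 57.1% with PRT4165.

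Hes1 was seen in more cells on both PRT4165 plates. The shares were 52.9% and 45.5% with vehicle and 62.5% and 74.03% with PRT4165, a difference of 19.1 percentage points between means of 49.2% ± 5.23 and 68.3% ± 8.15 (SD, n = 2). The groups did not overlap, and the exact permutation p (two-sided) was 0.33, the smallest that 2 against 2 plates can give. Thinned to 50000 counts, the shares were 49.2% and 31.5% against 63.9% and 58.3%. Thinned to 20000 counts, they were 44.8% and 29.1% against 56.7% and 38.7%, and the groups overlapped. In basal cells they were 39.5% and 50% against 60% and 73.3%, whereas in suprabasal cells vehicle replicate 1, at 75.0%, lay level with PRT4165 replicate 2. The summed level overlapped, at 54.03 and 22.6 CPM with vehicle and 78.001 and 40.3 CPM with PRT4165, and edgeR placed the log2 difference at 0.58 (SE 0.71, adjusted p = 0.997).

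Jag2 showed opposite orders by share and by level. It had a count in 18.6% and 27.3% of vehicle cells and in 36.1% and 31.2% of PRT4165 cells. In the basal class, where most of it was read, the summed level was 17.8 and 36.2 CPM with vehicle but 8.80 and 12.1 CPM with PRT4165. No order between treatments is therefore read for Jag2. Over all cells edgeR gave -1.17 on the log2 scale (SE 0.92, adjusted p = 0.997), and in the basal class -1.27 (SE 0.92, adjusted p = 0.960).

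Over all cells, Dll1 had an edgeR log2 fold change of 2.42 (SE 1.21, p = 0.0783, adjusted p = 0.997). It stood at 0.854 and 0.951 CPM with vehicle and 4.37 and 5.07 CPM with PRT4165. These levels rest on 2 to 5 cells a plate, and its share of cells overlapped between treatments (2.86% and 5.45% against 2.78% and 6.49%). The receptors moved less. Notch2 was seen in 32.9% and 38.2% of vehicle cells and 29.2% and 32.5% of PRT4165 cells, with a log2 fold change of 0.59 (SE 0.70), opposite to the share. Notch1 was at 25.4 and 37.996 CPM with vehicle and 24.6 and 29.1 CPM with PRT4165 (log2 fold change -0.18, SE 0.66), and Notch3 at 2.25 and 0.893 against 1.01 and 1.95 CPM (-0.10, SE 1.38). Rbpj was at 21.6 and 81.6 against 33.6 and 51.5 CPM (-0.15, SE 0.72) and Dlk2 at 4.23 and 2.71 against 2.86 and 4.16 CPM (0.03, SE 1.11), with the PRT4165 plates between or across the vehicle plates. All 5 had adjusted p-values of 0.997 to 0.999 by edgeR.

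By share of cells, 4 of the 9 members had both PRT4165 plates on 1 side of both vehicle plates, Jag1, Jag2 and Hes1 above and Notch2 below. Of all 13919 genes compared, 38.9% were so placed, 30.6% above and 8.34% below, and no exact test of 2 against 2 plates can fall below 0.33. The set of members changed with depth. Thinned to 50000 counts, Notch1 and Dlk2 were also placed below. Thinned to 20000 counts, the members so placed were Notch1 and Notch2 below and Notch3 and Jag1 above. With every deposited cell and no thinning, Notch1 was placed above. How many of all genes were so placed under these settings was not counted. The plate medians of depth were 141985 and 506827 counts with vehicle and 429383 and 538754 with PRT4165. For Jag2 the order by share went against that by basal level, and with at least 5 counts required its plates overlapped, at 10% and 23.6% against 19.4% and 14.3%.

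The difference between classes was compared between treatments by an interaction term. No member passed (0% of 10972 genes did, 459 had an unadjusted p under 0.05). The largest terms were those of Dlk2 at 7.38 (SE 6.09) and Jag2 at 5.01 (SE 2.96), for which edgeR gave p = 0.133 and an adjusted p of 1.0. Within the classes, 0% of 12045 genes in the basal and 0% of 10398 in the suprabasal class passed by edgeR, while 702 and 589 had an unadjusted p under 0.05 and DESeq2 called 1.47% and 2.41%, with no member among them. Jag2 and Dlk2 did not pass the filter on low counts in the suprabasal class and have no fit there.

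Other genes of the pathway were taken from a list of 58 that covers further ligands and receptors, the enzymes that glycosylate and cut the receptor, the ligases that act on ligands, and the co-activators and co-repressors of Rbpj. Of these, 50 had a row. In the class comparison 41 were tested and none passed by edgeR; 18 lay above and 23 below 0, with a median log2 fold change of -0.21. The single one at an unadjusted p under 0.05 was Cir1, a co-repressor partner of Rbpj (1.37, SE 0.49, adjusted p = 0.315). In the treatment comparison 44 were tested and none passed; 24 lay above and 20 below 0, with a median of 0.09, and Mib1, a ubiquitin ligase of Notch ligands, was the only one under 0.05 (-1.32, SE 0.57, unadjusted p = 0.0494, adjusted p = 0.997). Cir1 and Mib1 were named after their values had been seen. DESeq2 called no list gene in either comparison. Limma-trend called 1 of the 41 in the class comparison, against 13% of all genes tested. That gene was Nrarp, a Notch target that restrains the pathway, higher in suprabasal cells by 1.28 on the log2 scale (SE 0.35, adjusted p = 0.00798). Its summed level was not the higher one in suprabasal cells on vehicle replicate 1 (20.4 against 21.3 CPM in basal cells), but was so on the other plates. Its shares were not thinned to an equal depth. Nrarp had a count in 37.2%, 22.2%, 31.1% and 33.3% of basal and 62.5%, 58.8%, 65.2% and 65.6% of suprabasal cells on the 4 plates, without overlap, and did not pass by edgeR (1.43, SE 0.71, adjusted p = 0.471). In the interaction, DESeq2 called 1 of the 41, Pofut1, which fucosylates the receptors, with a term of 7.30 (SE 1.95, adjusted p = 0.0168). By edgeR the term was 7.29 (SE 2.63, unadjusted p = 0.0273) and did not pass. Pofut1 was at or near 0 in suprabasal cells with vehicle. It stood at 0 and 1.19 CPM there, with a count in 0% and 5.88% of cells. The share of all genes that DESeq2 called in the interaction is given in the closing section.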

How the data were processed

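Single tomato-positive tail skin cells were sequenced as full-length cDNA by a modified Smart-seq2 protocol. The authors mapped the reads with Salmon 0.13.1 to the Ensembl 101 mouse transcriptome (GRCm38) and deposited estimated counts per gene and cell, unscaled; 18.3% of values above 0 were not whole. The plate was the replicate, numbered by the batch label. Cells with at least 1000 genes and at most 50% of counts from 13 mitochondrial genes were kept, as in the study. Cells were classed by the sign of log2((Krt10 CPM + 1)/(Krt14 CPM + 1)). Wells held 1 sorted cell each, so doublets were not called.

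Counts were summed per plate (and class), rounded, filtered with filterByExpr, scaled by TMM and tested over all genes in edgeR 4.0.16 (quasi-likelihood, R 4.3.3), Benjamini-Hochberg adjusted, threshold 0.05, after the code had been tested on simulated data. Plate was a term in the class comparison only. DESeq2 1.42.0, limma 3.58.1 and other alternatives are given in the closing section. Shares of cells with a count were compared by exact permutation over plates, 9 members in each of 2 comparisons, unadjusted. The methods of the study state a pair of independent experiments, each with 4 biological replicates. Which mice each plate held is not given in the sources used here, so p-values measure only the spread between plates.

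Same-numbered plates share a batch label; over 12791 genes their deviations from the treatment mean correlated at 0.0206. Members, lists and tests were chosen with earlier results of these data known. All members, Krt14, Krt10, the check markers, list genes past the threshold and the 3 most correlated genes of each member were to be named.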

Additional observations from a re-analysis of the deposited data

Results flagged for a closer look

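Hes1 was singled out because its class difference in summed level pointed in opposite directions under the 2 treatments. The log2 ratio of suprabasal to basal CPM + 1 was -1.76 and -0.73 with vehicle but 0.12 and 0.06 with PRT4165, so the mean was 1.33 higher with PRT4165. The interaction term of the edgeR fit, which tests this difference, was 1.16 (SE 1.06, unadjusted p = 0.307, adjusted p = 1.0) and did not pass the threshold. The share of cells with Hes1 did not show the same split, since on vehicle replicate 1 it was 35.5 percentage points higher in suprabasal cells. Groups of 2 plates are too small for an outlier test.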

How the results depend on the processing

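No member passed in the treatment comparison under any of the 12 alternatives, or in the class comparison under edgeR with any scaling, filter, class rule or plate set. Over the alternatives, 13 member values of the class comparison and 14 of the treatment comparison changed direction. Jag2, Dlk2, Notch3, Rbpj and Dll1 kept their class direction throughout; with 1 plate left out the log2 fold change of Jag2 ran from -5.97 to -3.40, that of Dlk2 from -9.58 to -5.14, that of Notch3 from 1.92 to 3.11 and that of Rbpj from 1.405 to 2.28. The adjusted p of Jag2 ran from 2.339e-05 to 0.646 and that of Dlk2 from 0.00209 to 0.739.

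The share of genes called was tool-dependent. DESeq2 called 1.36% of genes over all cells, 12% (3 members) between classes, 1.76% for the interaction, and 1.47% in the basal and 2.41% in the suprabasal class by treatment. Limma-trend called 0.149% over all cells, 13% (2 members) between classes and 0.0332% in the basal class. Between classes, where edgeR called 0.1%, DESeq2 size factors gave 0.237%, no low-count filter 0.36% (0.411% for treatment in the suprabasal class), Krt10 of at least 100 CPM 0.392%, leaving out cells near the boundary 0.457%, and 4 keratins instead of 2 gave 0.401%. With 1 plate left out the share between classes ran from 0.00897% without vehicle replicate 2 to 0.0723%, in the basal class by treatment from 0% to 0.117%, without PRT4165 replicate 1, and in the suprabasal class from 0% to 0.0349%, without PRT4165 replicate 2. A lone plate of a treatment is then assumed to vary like the others. With the replicate block, which pairs the plates by batch label, 0.0083% of genes, 1 gene that was not a member, passed in the basal class; the block changed no other call. With cells thinned to 20000 counts, 2 instead of 4 members went 1 way by share on all plates (Notch2 and Notch3 did not). With at least 5 counts required, 2 did so (Notch3 and Jag2). Thinned to 50000 counts, Notch3, Jag2 and Rbpj did so. By the 100 CPM rule, and with boundary cells left out, Notch2 no longer did. How many of all genes went 1 way under these settings was not counted. With 1 plate left out 4 to 5 members went 1 way, and 6 to 7 members did not overlap between treatments. Both patterns are easier to meet with fewer plates, and how many of all genes met them was not counted. The 6 to 7 members are therefore not read as a clearer separation by treatment.

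Some directions turned. In the treatment comparison limma-trend gave -0.17 for Notch2, 0.11 for Notch3, 0.11 for Jag2, 0.41 for Rbpj and -0.16 for Dlk2. Notch3 was at 0.076 with every deposited cell and 0.0204 with the replicate block, and ran from -0.71 to 0.92 with 1 plate left out, above 0 without vehicle replicate 1 or PRT4165 replicate 1. Rbpj was at 0.0195 with the replicate block and ran from -0.75 to 0.88, above 0 without vehicle replicate 2 or PRT4165 replicate 1. Dlk2 ran from -0.36 to 0.56, below 0 without either replicate 2. In the class comparison Hes1 was at 0.084 with every cell, 0.071 by limma-trend, 0.013 by the 100 CPM rule and 0.0032 without boundary cells, and ran from -0.26 to 0.27, above 0 without either vehicle plate. Jag1 was at -0.48 by limma-trend and -1.19 by 4 keratins, and ran from -0.29, without PRT4165 replicate 1, to 0.29. Notch1 was at 0.028 by the 100 CPM rule and ran from -0.23 to 0.058, the latter without vehicle replicate 2, and Notch2 ran from -0.25 to 1.61, below 0 without vehicle replicate 2 or PRT4165 replicate 1. The causes were not tested. Leaving out the cell of most counts was chosen after seeing the data.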
